A study of Mus musculus with 8 samples.

Results

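The transient receptor potential (TRP) channels considered here are 9 genes that sensory neurons are known to use or that belong to the same families: Trpv1, Trpv2, Trpa1, Trpm2, Trpm3, Trpm7, Trpm8, Trpc1 and Trpc6. They were chosen by name, and each was found by its symbol in the mouse GENCODE M21 annotation among the 55335 genes counted. All 9 passed the filter on low counts, which kept 17618 genes. RNA was sequenced in bulk from vagal ganglia, where vagal sensory neurons that innervate the airways, heart and gut have their cell bodies. The mice were wild type (WT) and had received saline or HDM (house dust mite, an allergen that people inhale at home), and ganglia were taken 1.5 h after challenge number 4. There were 4 libraries in each group, and each pooled 3 to 4 mice, with 6 to 8 ganglia in all. A replicate is therefore 1 pool of animals. A batch label from 1 to 4 equals the replicate number, so each batch held 1 HDM library and 1 saline library. Age, sex and the dose of HDM are not known here.

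TRP channels are cation channels of the plasma membrane that open in response to temperature, chemicals, lipids or signals from other receptors, and the calcium and sodium that enter depolarise the cell. In vagal sensory neurons TRPV1 and TRPA1 are the best known members, since capsaicin and irritant gases that open them evoke cough and other airway reflexes. Inflammatory mediators are known to lower the threshold of both channels through G protein-coupled receptors, phospholipase C and protein kinases.

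Library totals were 23.95 to 26.67 mega-counts in HDM and 26.87 to 31.28 mega-counts in saline. Levels are given as CPM, the counts of a gene per mega-count of its library, scaled by the total and by the TMM factor of each library, and levels of different genes are compared only as CPM per kilobase of exons. Across all tested genes 244 of 17618, or 1.38%, differed between the groups by edgeR's quasi-likelihood test with an adjusted p under 0.05, the threshold used throughout. Of 14 summed lists of cell type markers, from neurons to erythrocytes, none had a gene at 0 in all libraries and none passed after adjustment. The tissue held neurons in every library: 13 pan-neuronal markers summed to 13280 to 14337 CPM in HDM and 12478 to 12856 CPM in saline. Those ranges did not overlap, but the difference did not pass over the 14 lists (2-sided exact permutation p = 0.0286, the minimum over 70 assignments, and adjusted p = 0.40). In bulk tissue fewer cells of a type and less RNA per cell cannot be told apart.

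None of the 9 TRP channels passed the test of HDM against saline. The log2 fold changes, HDM over saline, ran from −0.28 for Trpm8 to 0.13 for Trpm2, and 0 of 9 passed the threshold, against 1.38% of all tested genes. With the replicate number as a block 0 of 9 passed as well, against 4.05% of tested genes, and 0 of 9 with the block and a correction for GC content, against 0.289%. At an unadjusted p under 0.05 there were 3 members, Trpm3, Trpm7 and Trpc1, against 18.1% of tested genes. The groups did not overlap for 0 of 9 members, against 10.6% of tested genes. The intervals (95%) of the 9 fold changes together ran from 0.66 to 1.22, so larger changes of the group means lay outside every interval.

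In order of level, the channels stood from 64.7 CPM per kb for Trpv1 down to 2.05 CPM per kb for Trpm2, a ratio of 31.6 in the means of all 8 libraries. Trpa1 followed with 51.8 CPM per kb, then Trpm8 with 19.7, Trpv2 with 17.8, Trpm7 with 7.59, Trpc1 with 5.61, Trpc6 with 3.69 and Trpm3 with 3.11. Trpv1 was above Trpa1 in all 8 libraries, with ranges of 60.6 to 68.3 and 50.3 to 54.3 CPM per kb. Neighbours in this order overlapped in 2 places. Trpm8 spanned 13.8 to 25.5 CPM per kb and Trpv2 16.9 to 18.6, and Trpm8 was the higher in 6 of 8 libraries. Trpc6 and Trpm3 spanned 3.17 to 4.54 and 2.59 to 3.68 CPM per kb, although Trpc6 was the higher in 8 of 8 libraries. The order depends on the length used, which joins all annotated exons of a gene. It was 24.4 kb for Trpm3 and 12.5 kb for Trpm2, against 3.68 kb for Trpv1. A gene whose transcripts here use only part of those exons is understated. Before division by length Trpm3 had 70.8 CPM in HDM and 81.0 in saline, near Trpv2 with 81.2 and 78.2.

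The 9 channels made up 84.7% ± 0.25 of the summed CPM per kb of a list of 28 TRP genes in HDM and 84.5% ± 0.69 in saline (SD, n = 4 each). Trpv1 alone held 32.2% ± 0.77 in HDM and 30.0% ± 0.83 in saline. Trpa1 held 24.8% ± 0.88 and 25.1% ± 0.42. Both are channels of nociceptors, the neurons that respond to harmful stimuli. With CPM not divided by length, Trpv1 held 22.2% in HDM and 20.4% in saline, and Trpa1 19.7% in each. Trpm8 had the most variable share, at 8.63% ± 2.01 and 10.2% ± 0.93.

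**Figure D1:**
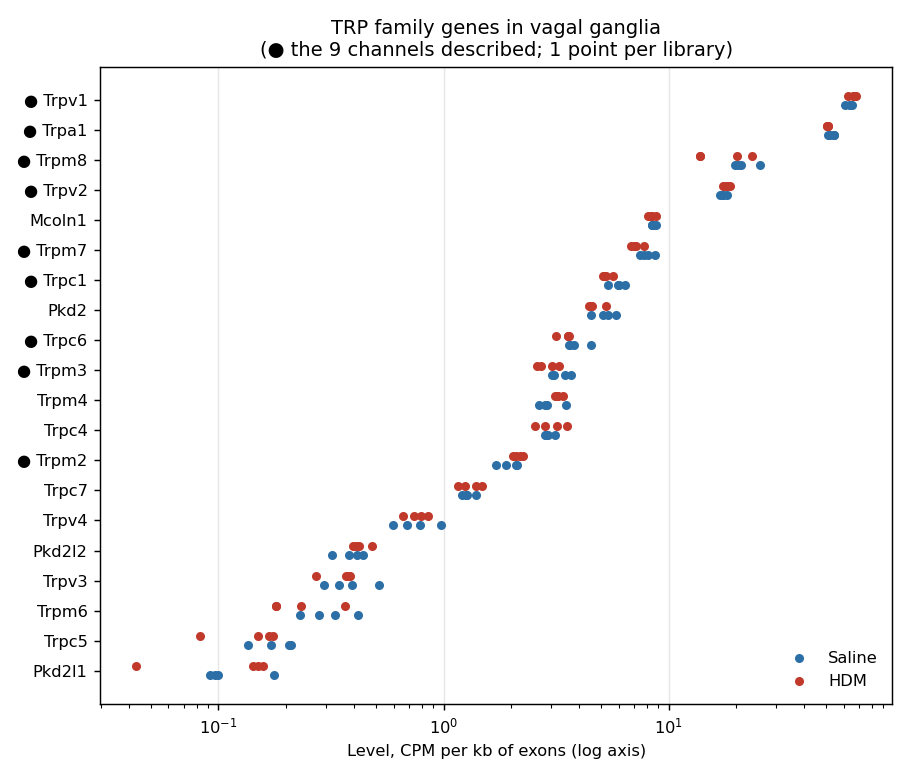
Level of TRP family genes that passed the filter, in CPM per kilobase of exons (log axis), 1 point per library, HDM in red and saline in blue, with a black dot before the name of each of the 9 channels. Trpv1 and Trpa1 stand highest, and HDM and saline points overlap for every gene drawn.

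Trpv1 and Trpa1 are the irritant receptors. Trpv1 (ENSMUSG00000005952, GRCm38 chr11:73234292-73261242, plus strand) encodes the receptor of capsaicin, noxious heat and acid. It had 242.4, 251.2, 246.2 and 230.4 CPM in HDM libraries 1 to 4 and 223.2, 236.3, 234.5 and 240.3 CPM in saline libraries 1 to 4. HDM was the higher in batches 1 to 3 and the lower in batch 4, and the groups overlapped. The log2 fold change was 0.05 (SE 0.044, interval −0.04 to 0.15, edgeR adjusted p = 0.539).

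Trpa1 (ENSMUSG00000032769, chr1:14872648-14918862, minus strand) encodes the receptor of reactive irritants such as mustard oil and acrolein. Its HDM libraries had 214.4, 217.9, 216.6 and 215.0 CPM, and its saline libraries 216.9, 222.4, 231.7 and 231.5 CPM. Saline 3 and saline 4 stood above all other libraries, saline 1 lay inside the HDM range, and HDM was the lower in 4 of 4 batches. The difference did not pass (log2 fold change −0.06, SE 0.040, interval −0.15 to 0.02, edgeR adjusted p = 0.430). The HDM libraries were close together, with a coefficient of variation of 0.73% against 3.21% in saline, and a count of this size would alone give 1.35% in HDM.

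Trpm8 and Trpm3 are temperature sensors. Trpm8 (ENSMUSG00000036251, chr1:88277661-88389293) encodes the receptor of cold and menthol, and in vagal ganglia it is known from neurons of the jugular part. Its HDM libraries had 65.2, 95.1, 111.3 and 65.3 CPM, and its saline libraries 93.5, 96.3, 120.8 and 98.7 CPM. HDM 1 and HDM 4 stood apart below the other 6 libraries, HDM 2 and HDM 3 lay within the saline range, and HDM was the lower in 4 of 4 batches. The log2 ratio within batches was −0.52 in batch 1, −0.02 in batch 2, −0.12 in batch 3 and −0.60 in batch 4. The log2 fold change was −0.28 (SE 0.15, interval −0.59 to 0.03, edgeR adjusted p = 0.326), the largest among the members and the one with the widest interval. It was −0.44 without HDM 3 and −0.18 without HDM 1 or without HDM 4. Trpm8 shares 388 bases of its exons, 8.20% of their length, with the opposite-strand gene 4930453O03Rik, which had 1 to 4 counts in each library.

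Trpm8 was lowest in the libraries with the most nodose marker RNA. Markers of nodose neurons, which are the other part of the vagal ganglia, summed to 1560 CPM in HDM 1 and 1619 CPM in HDM 4 and to 1179 to 1345 CPM in the other 6 libraries. HDM 1 and HDM 4 also had 1172 and 1127 CPM of jugular markers, counted without Trpm8, against 1330 and 1321 CPM in HDM 2 and HDM 3 and 1163 to 1268 CPM in saline. Nefh alone made up 696 and 637 CPM of the jugular sums of HDM 1 and HDM 4, the largest part of each. Nefh had a Pearson r of −0.11 with Trpm8. Prdm12, Runx1, Mrgprd, Mrgpra3, Gfra3 and Ntrk3 had r of 0.85 to 0.92 with Trpm8, while Tlx3 and Sst had −0.75 and −0.56. These r were not tested. Over the 8 libraries Trpm8 and the nodose sum had a Pearson r of −0.94 (exact permutation p = 0.00362, adjusted p = 0.120 over 36 relations of the 9 members with 4 marker lists) and a Spearman rho of −0.83 (exact permutation p = 0.0154, adjusted p = 0.138). Without HDM 1 and HDM 4 r was −0.60, so the relation rested on those libraries. None of the 36 relations passed, and they were computed after the values were seen. Centred on the group means, 1 of them passed, again Trpm8 with the nodose sum (r = −0.92, permutation adjusted p = 0.0411). That p is not exact and may be too small, since values centred within groups were shuffled freely over all 8 libraries. Within batches 1 to 4 the log2 ratio of the nodose sum, HDM over saline, was 0.32, 0.13, −0.04 and 0.29, so batches 1 and 4, with the lowest Trpm8 ratios, had the highest nodose ratios. No coefficient was computed over these 4 ratios. The part of nodose and jugular neurons in the Trpm8 values was not tested.

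**Figure D2:**
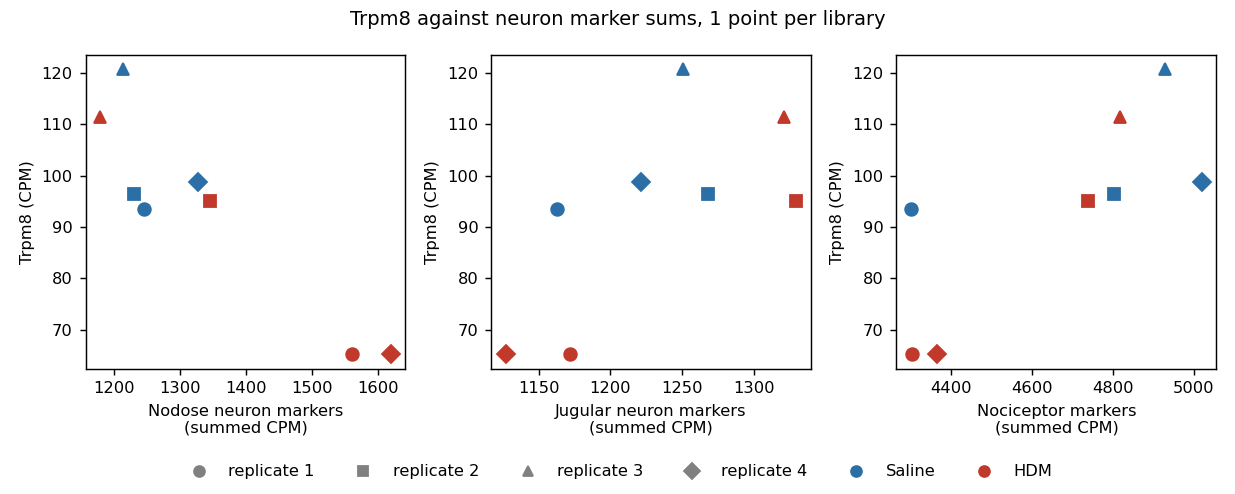
CPM of Trpm8 (vertical axes, which start above 0) against the summed CPM of nodose, jugular and nociceptor markers (horizontal axes), 1 point per library, HDM in red and saline in blue, with the shape giving the replicate. HDM 1 and HDM 4 have the least Trpm8, the most nodose marker RNA, and jugular and nociceptor sums in the lower part of the range.

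Trpm3 (ENSMUSG00000052387, chr19:22139046-22995410) encodes a heat sensor that pregnenolone sulfate also opens. It had 63.3, 74.4, 79.6 and 66.1 CPM in HDM and 84.8, 75.3, 90.0 and 74.1 CPM in saline. HDM 1 and HDM 4 were again the lowest, HDM was the lower in 4 of 4 batches, and the groups overlapped. The difference did not pass (log2 fold change −0.19, SE 0.077, interval −0.36 to −0.03, edgeR adjusted p = 0.211). With no filter on low counts Trpm3 and Trpm8 passed as lower (edgeR adjusted p = 0.0470 and 0.0363), in a fit that called 722 of 31988 genes, or 2.26%, and 0.941% as lower. No other alternative called a member.

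Trpv2 and Trpm2 lay slightly higher in HDM. Trpv2 (ENSMUSG00000018507, chr11:62574486-62600515) encodes a channel of myelinated sensory neurons and of macrophages. It had 80.8, 81.9, 78.4 and 83.6 CPM in HDM and 77.9, 77.9, 81.1 and 76.0 CPM in saline, with HDM 3 and saline 3 in reverse order to the other batches. The log2 fold change was 0.05 (SE 0.042, interval −0.04 to 0.14, edgeR adjusted p = 0.528). Macrophage markers summed to 60.7 to 78.6 CPM in HDM and 59.7 to 96.9 CPM in saline, and their part in the Trpv2 values was not tested.

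Trpm2 (ENSMUSG00000009292, chr10:77907722-77970563) encodes a channel that ADP-ribose and oxidative stress open and that also responds to warmth. Its HDM libraries had 25.2, 28.0, 26.1 and 27.3 CPM, and its saline libraries 21.3, 26.5, 23.6 and 26.1 CPM. Saline 1 and saline 3 were the lowest, HDM was the higher in 4 of 4 batches, and the groups overlapped. The log2 fold change of 0.13 was the highest among the 9 (SE 0.073, interval −0.03 to 0.28, edgeR adjusted p = 0.371).

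Trpm7 is present in most cell types, where it is both a channel for magnesium and other divalent cations and a protein kinase. Trpm7 (ENSMUSG00000027365, chr2:126791565-126876230) had 79.0, 81.4, 87.9 and 77.2 CPM in HDM and 88.2, 84.6, 97.9 and 91.2 CPM in saline. Only HDM 3 lay inside the saline range, where it exceeded saline 2, and the other HDM libraries lay below all saline libraries. The log2 fold change was −0.15 (SE 0.055, interval −0.27 to −0.04, edgeR adjusted p = 0.164).

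Trpc1 and Trpc6 belong to the canonical family, whose channels open downstream of receptors that activate phospholipase C. Trpc1 encodes a subunit that forms channels with other family members, and Trpc6 a channel that diacylglycerol opens. Trpc1 (ENSMUSG00000032839, chr9:95705082-95750375) had 41.1, 45.4, 41.2 and 42.2 CPM in HDM and 43.2, 47.7, 48.2 and 51.4 CPM in saline. Only HDM 2 and saline 1 made the groups overlap. Its log2 fold change was −0.16 (SE 0.058, interval −0.29 to −0.04, edgeR adjusted p = 0.160).

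Trpc6 (ENSMUSG00000031997, chr9:8544142-8680741) had 16.1, 18.4, 18.1 and 18.01 CPM in HDM and 18.6, 19.2, 23.0 and 18.3 CPM in saline. HDM 1 was the lowest library and saline 3 the highest, and the other 6 lay between 18.01 and 19.2 CPM. The log2 fold change was −0.16 (SE 0.082, interval −0.34 to 0.01, edgeR adjusted p = 0.313).

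**Figure D3:**
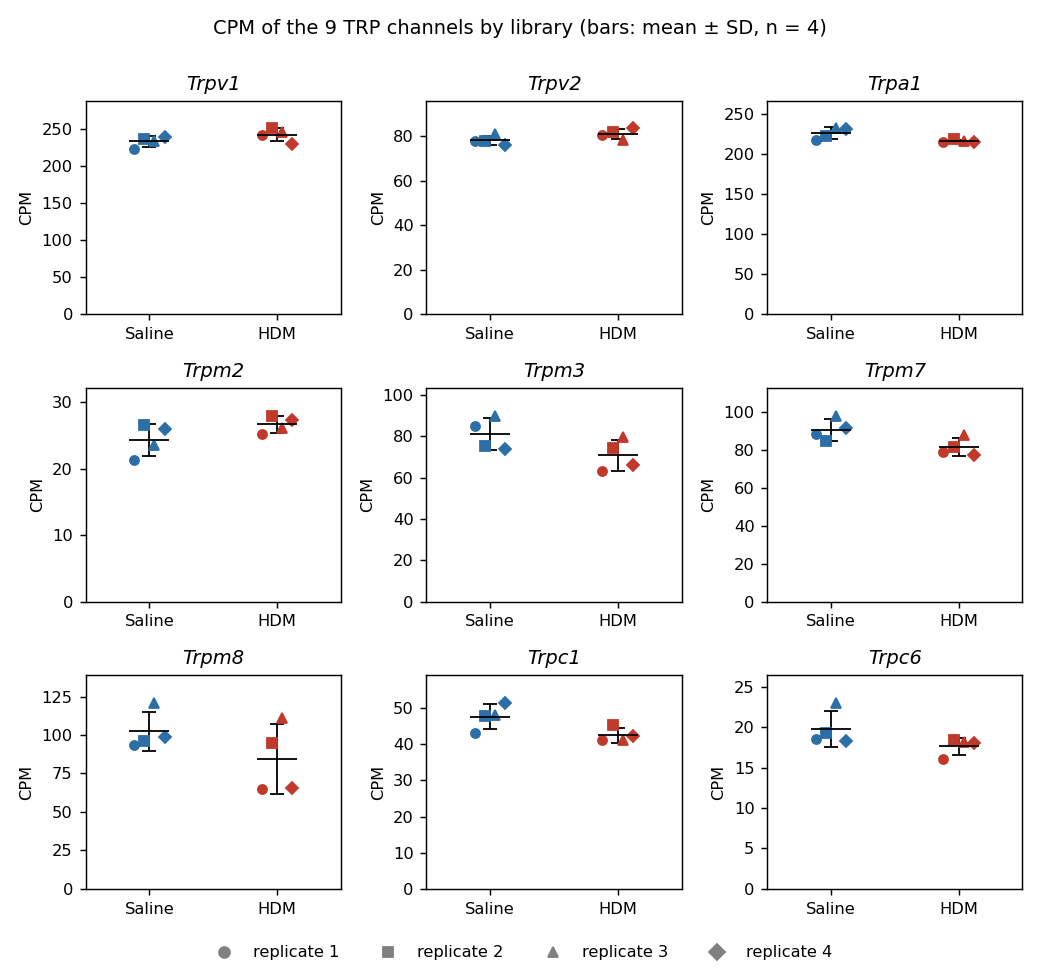
CPM of the 9 channels in each library, with the shape giving the replicate and bars giving mean ± SD of 4 libraries; each vertical axis starts at 0. The groups overlap for all 9, and the spread is widest for Trpm8 in HDM.

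The sign of the difference was the same in all 4 batches for 7 of the 9 members, against 28.4% of tested genes. Of these, 6 were lower in HDM (Trpa1, Trpm3, Trpm7, Trpm8, Trpc1 and Trpc6) and 1, Trpm2, was higher. The members are measured in the same 8 libraries and are not independent of each other. Their median log2 fold change was −0.15, and that of all tested genes −0.01.

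Among the 9 channels the sign of the difference went with the base composition of the transcripts. The 3 members with a positive log2 fold change, Trpv1, Trpv2 and Trpm2, have transcripts with a GC content of 52.9%, 54.4% and 53.8%, the highest among the 9. The 6 with a negative one lie between 39.5% for Trpm7 and 50.1% for Trpm8. After the correction for GC content within each library the median of the 9 was −0.06, and Trpv2 and Trpa1 changed sign, to −0.01 and 0.02. Trpm7 went from −0.15 to −0.06, Trpv1 from 0.05 to 0.02, Trpm2 from 0.13 to 0.08, Trpc6 from −0.16 to −0.11, Trpc1 from −0.16 to −0.12 and Trpm3 from −0.19 to −0.16. Trpm8 had −0.28 before and −0.27 after the correction. After this correction edgeR called 0 of all tested genes, and at an unadjusted p under 0.05 there were 1 of the 9 members and 11.7% of tested genes (2063).

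**Figure D4:**
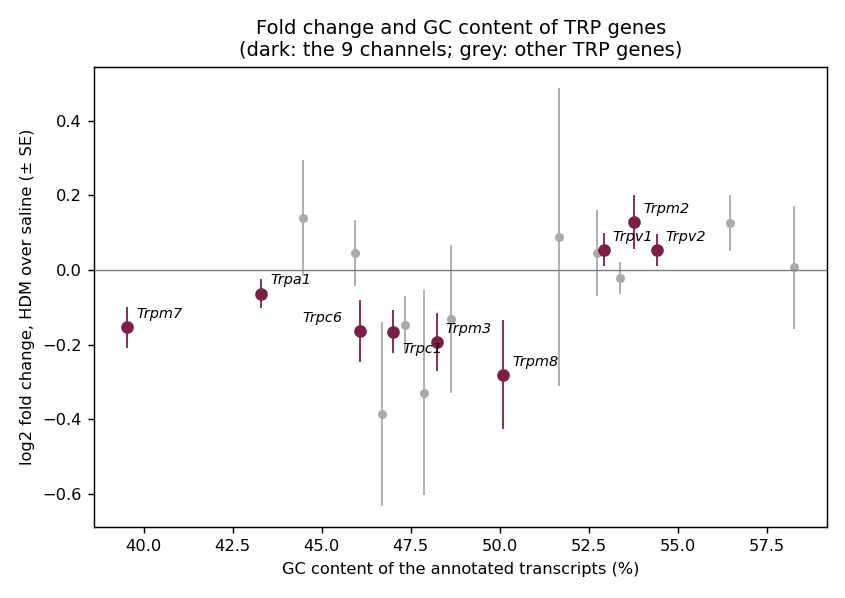
Log2 fold change, HDM over saline (vertical axis, lines ± SE), against GC content of the annotated transcripts (horizontal axis, percent) for the 9 channels (dark, named) and other TRP genes (grey). The 3 channels above 0 have the highest GC content of the 9, and Trpm8 is the lowest point among the named genes.

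**Figure D5:**
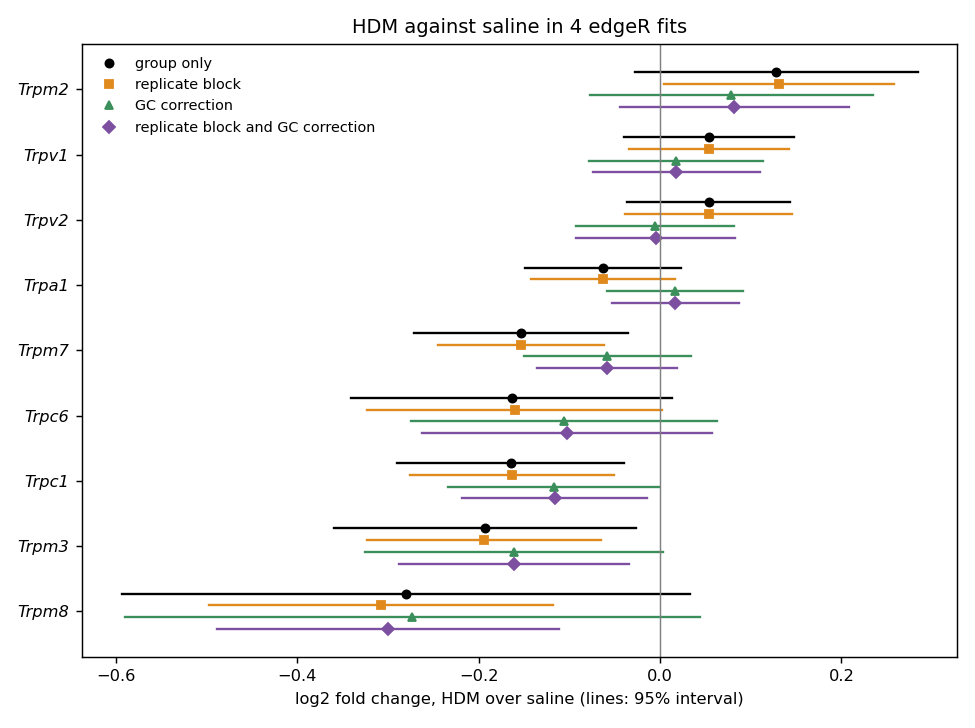
Log2 fold change, HDM over saline, with its 95% interval for the 9 channels in 4 edgeR fits: group only, with the replicate number as a block, with the GC correction, and with both. Intervals of the same gene overlap among the fits, and Trpm8 has the widest.

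Relative to the summed pan-neuronal markers, which were higher in HDM, 8 of the 9 channels had lower means in HDM, against 80.3% of tested genes. Trpa1 had a log2 difference of −0.19, Trpc1 of −0.29 and Trpc6 of −0.29, with all HDM libraries below all saline libraries, as in 19.9% of tested genes (exact permutation test, 2-sided, p = 0.0286 and adjusted p = 0.0857 for each, n = 4 per group). Trpm8 had −0.44 and Trpm3 −0.33, Trpv1 and Trpv2 −0.08 each, and Trpm2 0.00. None passed after adjustment over the 9, although Trpa1, Trpm3, Trpm7, Trpm8, Trpc1 and Trpc6 did without HDM 3 (exact permutation adjusted p = 0.0429 each). HDM 3 had the lowest pan-neuronal sum of the HDM libraries, 13280 CPM, so the same CPM gives a higher relative level there than in the other HDM libraries. The share of all tested genes without HDM 3 was not computed, so those calls cannot be read as a trait of the channels. Relative to 12 nociceptor markers none passed either, and Trpv1 and Trpv2 were higher, by 0.12 each. The 2 scales thus gave opposite signs for Trpv1 and Trpv2, and Trpa1 went from −0.19 to 0.0006.

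Few pairs of channels varied together across libraries beyond the threshold. Of 36 pairs, 22 had a positive Pearson r over the 8 libraries, and 1 passed after adjustment. That pair was Trpa1 and Trpc1 (r = 0.91, exact permutation p = 0.000273, adjusted p = 0.00982; rho = 0.95, p = 0.00114, adjusted p = 0.0411). Without saline 3 and saline 4 r was 0.92. It did not pass with group means removed (r = 0.81, permutation adjusted p = 0.144), nor after the GC correction (r = 0.18, exact permutation adjusted p = 0.928). Trpm3, Trpm7 and Trpm8 had r between 0.86 and 0.89 with each other and did not pass (exact permutation adjusted p = 0.0625 each). For all 3 of these genes saline 3 was the highest library.

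For each channel the genes with the most similar values over the 8 libraries were found among 12738 genes, as a description. They were Dolpp1, Ppp1r3e and Thoc6 for Trpv1, Marf1, Cltc and Ube4a for Trpa1, and Cdh11 and Pde1c for Trpm8. Rbm15, Dhx58 and Snx30 were nearest to Trpv2, Cep120, Ap2a2 and Med16 to Trpm2, and Clk4, Epb41 and Rbmx to Trpm3. Myo9a, Bmpr1a and Pik3c2a followed Trpm7, Ranbp6, Dync1i2 and Coa5 followed Trpc1, and Cyp3a13, Luc7l2 and Tnrc6a followed Trpc6. Their r lay between 0.945 and 0.998, while the nearest neighbour of a gene had a median r of 0.973 over all genes searched, so these values are ordinary for 8 libraries.

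Of the 19 other genes of the TRP list 12 passed the filter, and 0 passed the test, against 1.38% of tested genes. The log2 fold changes of those 12 ran from −0.39 to 0.14, with 6 positive and 6 negative. Mcoln1, a channel of lysosomes, had 8.47 CPM per kb and a log2 fold change of −0.02, Pkd2, a channel of cilia and of the endoplasmic reticulum, 4.94 and −0.15, and Trpm4, a calcium-activated cation channel, 3.10 and 0.13. The gene after Trpv1 on chromosome 11, Trpv3, starts 6145 bases beyond it and was at a mean of 2.05 (HDM) and 2.26 CPM (saline). The other 7, Trpv5, Trpv6, Trpm1, Trpm5, Trpc2, Mcoln2 and Mcoln3, had at most 12 counts in a library. Trpc2 shares 97.5% of its exon bases with Xntrpc, so its count of 0 is uncertain.

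Few genes that act on these channels passed the test. Among 28 partners and regulators, all tested, 2 rose and 0 fell, against 1.23% of tested genes higher and 0.159% lower, and the median log2 fold change was 0.03. They were Pip5k1c, which makes the membrane lipid PIP2, and Plcb3, a phospholipase C that cleaves it (log2 fold change 0.21 each, edgeR adjusted p = 0.0422 and 0.0439). After the GC correction they had 0.09 and 0.12 and did not pass. Gna11, a G protein that activates phospholipase C, had 0.16 and Calm3, a calmodulin gene, 0.14, and neither passed.

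Of 26 receptors known to sensitise TRPV1 or TRPA1, 24 were tested, and the median was −0.02. Of these 1 rose and 0 fell, against 1.23% of tested genes higher and 0.159% lower. The gene that rose was Ngfr, a receptor of nerve growth factor and other neurotrophins, at 922 CPM in HDM against 754 CPM in saline. Its log2 fold change was 0.29 (edgeR adjusted p = 0.0445), and the GC correction brought it to 0.18 (edgeR adjusted p = 0.289). Osmr, a subunit of the receptors of oncostatin M and interleukin-31, had −0.19, Ptgir, the prostacyclin receptor, 0.17, and Oprm1, the mu opioid receptor, −0.40. With the replicate block 2 rose, Ngfr and Ptgir (edgeR adjusted p = 0.0379 for Ptgir), and 2 fell, Oprm1 (0.0328) and Mrgprd (−0.30, 0.00904), against 3.01% of tested genes higher and 1.03% lower. With the block and the GC correction Mrgprd passed (edgeR adjusted p = 0.0354), while Ngfr (0.116), Ptgir (0.180) and Oprm1 (0.0810) did not.

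Of 11 enzymes that make or degrade lipid ligands of TRP channels 10 were tested, and 0 passed, against 1.38% of tested genes. Daglb, which makes 2-arachidonoylglycerol, had a log2 fold change of 0.15. Pla2g4a, which releases arachidonic acid, and Alox12 and Ptgs2, which act on it, had −0.73, −0.72 and −0.85. The mean levels of Pla2g4a, Alox12 and Ptgs2 lay between 0.461 and 2.55 CPM. Of 12 nociceptor markers, which share their neurons with Trpv1 and Trpa1, 0 passed, against 1.38% of tested genes. Their median log2 fold change was −0.13. Tac1, the gene of substance P, had −0.21, Scn9a, a sodium channel gene, −0.17, and Plxnc1, a semaphorin receptor, −0.22. Plxnc1 was the 1 marker that passed with the replicate block (edgeR adjusted p = 0.0301), as lower, against 1.03% of tested genes. With the block and the GC correction it did not pass (edgeR adjusted p = 0.0858).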

How the data were processed

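Bulk RNA-seq of 8 libraries from mouse vagal ganglia was used, 4 HDM and 4 saline pools. The authors deposited whole-number counts per gene, made with featureCounts on GRCm38 (mm10) per the submitters' processing notes. Libraries were made with a stranded mRNA kit and sequenced as paired reads of 50 bp per the labels' protocols. For the aligner, software versions and strand setting, nothing is stated (not given in the sources used here). Without the strand setting, it is not known whether antisense overlaps added to a gene's count or took reads from it. Of 55335 genes, 55154 had a symbol in GENCODE M21, and 54899 had the same span there.

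Counts were filtered with filterByExpr of edgeR 4.0.16 (R 4.3.3), scaled by TMM, and compared with the quasi-likelihood F-test (2-sided), group as the only term, with Benjamini-Hochberg adjustment over 17618 genes. SE was the log2 fold change over the square root of F. Replicates are pools, so the spread holds animal and preparation differences. Exon lengths come from the deposited table. The GC correction was a natural spline of log2 CPM against GC content (4 degrees of freedom) for each library, fitted on genes with a mean log2 CPM above 3 and used as an offset. Alternatives were 2 other scalings, 2 other filters, DESeq2 1.42.0, limma 3.58.1 (voom), a replicate block, a threshold of 0.1, and leaving out each library or batch. The fits were tested on simulated counts.

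The labels pair the libraries by batch. After group means were subtracted, libraries of the same batch had correlations over genes of −0.05 to 0.04, and 0 of 8 libraries lay closest to its batch partner. The pairing is therefore taken from the batch label only.

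The 9 channels and the gene lists were chosen with earlier results of these data known. Genes named were the 9 members, the 4 other TRP genes with the highest level, up to 4 genes with the smallest p per list, and the 3 nearest genes per member. Some genes that this rule took are not reported here. Mrgprd was named after its values were seen.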

Additional observations from a re-analysis of the deposited data

Results flagged for a closer look

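In 2 of 24 groups of 4 libraries examined (the 9 channels and the nodose, jugular and sympathetic marker sums, in HDM and in saline), 1 library lay far from the other 3 by Dixon's criterion; chance gives about 1 in 20. For Trpc6, HDM 1 was the lowest of the HDM libraries with 16.07 CPM, and the other 3 lay at 18.01 to 18.4 CPM. For the summed markers of sympathetic neurons, HDM 4 was the highest with 916.2 CPM, against 333 to 378 CPM in the other HDM libraries and 174 to 430 CPM in saline.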

How the results depend on the processing

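The count of 244 genes called between HDM and saline depended on the processing: it was 722 with no filter on low counts, 711 with DESeq2, 709 at an adjusted p under 0.10, 713 with the replicate block, 51 with the block and the GC correction together, and 0 with the GC correction alone. Leaving out 1 library or batch gave 0 to 376 genes, namely 0 without HDM 1, HDM 2 or saline 3, 60 without HDM 4, 97 without saline 2 and 376 without HDM 3. Without batch 1, 2, 3 or 4 in both groups it was 5, 0, 24 and 4.

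Of the 9 channels, 0 passed in any alternative except the fit with no filter, in which 2 did, Trpm3 at −0.21 and Trpm8 at −0.29; the cause was not tested. The replicate block changed no member's call, and the edgeR adjusted p was then 0.0672 for Trpm7, 0.0752 for Trpm8, 0.0947 for Trpm3 and 0.105 for Trpc1. Trpv2 and Trpa1 changed sign with the GC correction, to −0.0053 and 0.0167 without the block and −0.0048 and 0.0167 with it; by its construction the correction removes a trend with GC content. Leaving out libraries or batches kept the sign of all 9 log2 fold changes but moved several by over 1.5 times. Trpm2 was 0.064 and Trpv1 0.027 without saline 1, and Trpv1 was 0.036 without HDM 2. Trpc6 had −0.084 without saline 3, Trpm3 −0.12 without batch 1, and Trpv2 0.022 without batch 4. The other scalings moved the median of all genes by −0.0032 and −0.0016, and the GC correction by 0.0071. Without length scaling the share of the TRP list's level moved for 8 of the 9 channels, all but Trpc6.

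Relative to nociceptor instead of pan-neuronal markers, Trpv1, Trpv2 and Trpa1 changed sign, to 0.1175, 0.1165 and 0.0006. Without single libraries, the values relative to pan-neuronal markers ran from −0.215 to −0.1737 for Trpa1, −0.4044 to −0.2677 for Trpm3, −0.3418 to −0.2386 for Trpm7, −0.6115 to −0.3306 for Trpm8, −0.3339 to −0.2607 for Trpc1, −0.331 to −0.2098 for Trpc6 and −0.0541 to 0.037 for Trpm2, and the lowest adjusted p, 0.0429, came without HDM 3.

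With group means removed, 13 of 36 correlations changed sign, none of them past the threshold: Trpv1 had −0.41 with Trpv2, 0.63 with Trpa1, 0.097 with Trpm3, 0.39 with Trpm7 and 0.098 with Trpc6; Trpv2 had 0.076 with Trpa1, −0.066 with Trpm2, 0.087 with Trpm3 and 0.0069 with Trpc1; Trpm2 had 0.51 with Trpa1, 0.073 with Trpm8 and 0.080 with Trpc6; Trpm3 had −0.18 with Trpc1. With 4 pools a group, changes of the size of the SE given for each channel could not be detected.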

Other observations

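After the values were seen, the ratio of each pair of channels was compared between HDM and saline, since a ratio within a library does not depend on its scaling. Of 36 pairs, 0 passed (exact permutation test, 2-sided, lowest adjusted p = 0.147), and the groups did not overlap in 7 of 36, against 8.43% of all pairs of tested genes; the 36 pairs share 9 genes. In 7 of those 7 the channel with the higher GC content was the one favoured in HDM, and after the GC correction the groups did not overlap in 2 of 36 pairs, against 5.68% of all pairs. For the irritant receptors, the ratio of Trpv1 to Trpa1 in CPM per kb was 1.31, 1.34, 1.32 and 1.24 in HDM libraries 1 to 4 and 1.19, 1.23, 1.17 and 1.202 in saline, with all HDM values above all saline values. The difference was 0.12 on the log2 scale (exact permutation p = 0.0286, the minimum over 70 assignments, and adjusted p = 0.147), and 0.0014 after the GC correction (exact permutation p = 0.943).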
